A study of Vitis vinifera and Vitis x champinii x Vitis riparia and Vitis cinerea var. helleri x Vitis rupestris with 22 samples.

Results

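The 98 genes described here were those whose array signal was higher with salt in roots of Cabernet Sauvignon and whose salt difference in roots of the rootstock K51-40 stayed below a set limit. They were chosen from the deposited log2 values, averaged over all spots of a gene, by 3 criteria. The salt mean exceeded the control mean by at least 0.6 in Cabernet Sauvignon, every salt array there lay above every control array, and the same difference in K51-40 was below 0.4. Of the 26241 genes on the array, 191 reached the first criterion, 155 also met the second and 99 also met the third, and 1 of these was left out by name. The differences in Cabernet Sauvignon and K51-40 therefore describe how the genes were picked and are given without a test. The salt response of the third variety, 140 Ruggeri, played no part in the choice and was tested. The test shared its estimate of the spread with the arrays that the choice had used. Its p-values were therefore not fully independent of the choice.

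Rooted leaves were grown in hydroponics and then kept for 4 days at 0 or 50 mM Cl-, given as chlorides of Na, Ca and Mg, and RNA came from the whole roots. Cabernet Sauvignon is a Vitis vinifera wine variety, K51-40 is a hybrid of V. champinii and V. riparia, and 140 Ruggeri is a hybrid of V. berlandieri and V. rupestris, which GEO lists as V. cinerea var. helleri × V. rupestris. There were 4 control and 4 salt arrays of Cabernet Sauvignon and of K51-40, and 3 and 3 of 140 Ruggeri, and each array held the pooled roots of 4 rooted leaves. The probes were designed on V. vinifera transcripts, so a level that differs between varieties cannot be told apart from a difference in how well a probe matches that variety.

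Salt exposes roots to a lower external water potential and to excess ions. Plant cells are known to respond with compatible solutes such as raffinose family sugars, with enzymes that conjugate or oxidise reactive molecules, with secreted proteins that remodel or cross-link the cell wall, and with changes in hormone synthesis and breakdown. Galactinol synthase, glutathione S-transferases, cytochrome P450 monooxygenases, germin-like proteins and class III peroxidases, all present among the 98 genes, belong to these groups.

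Arrays tended to be brighter with salt in Cabernet Sauvignon and 140 Ruggeri. The median spot intensity was 124 to 289 on Cabernet Sauvignon control arrays and 232.5 to 462 on its salt arrays, 105.5 to 172 and 161 to 226.5 in 140 Ruggeri, and 131 to 240 and 106 to 245 in K51-40. The deposited values had been quantile normalized, and the part of brightness in the results was not tested. The scanner values labelled Cabernet Sauvignon control replicate 3 resembled K51-40 control replicate 1, with r = 0.93 across probes to their own processed column, whereas that processed column correlated at 0.989 or more with the other Cabernet Sauvignon arrays and at 0.948 or less with those of other varieties. Without that column the same criteria found 90 genes, 86 of them among the 98. Root markers were unevenly expressed: the tonoplast aquaporins TIP2;2 and the plasma membrane aquaporin PIP2;4 lay between the percentiles 60.4 and 97.3 of all genes on control arrays, whereas PIP1A and the nitrate transporter NRT1-5 lay between 0.164 and 27.3. The photosystem I antenna gene LHCA3, a leaf marker, lay between 87.7 and 93.6. No other chlorophyll a-b binding protein, and no RuBisCO small chain or Casparian strip protein was named in the annotation used.

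The average over the 98 genes gave a first view of each array. On the log2 intensity scale it was 8.66, 8.67, 8.65 and 8.74 on the 4 Cabernet Sauvignon control arrays and 9.50, 9.52, 9.53 and 9.60 on the 4 salt arrays, which is 8.68 ± 0.04 against 9.54 ± 0.04 (SD, n = 4). In K51-40 it was 8.92 ± 0.05 and 8.96 ± 0.12 (SD, n = 4). In 140 Ruggeri it was 9.03, 9.01 and 9.07 on control arrays and 9.45, 9.34 and 9.40 on salt arrays, or 9.04 ± 0.03 and 9.40 ± 0.05 (SD, n = 3). The control and salt arrays of 140 Ruggeri did not overlap, while those of K51-40 did. Under control conditions Cabernet Sauvignon had the lowest average and 140 Ruggeri the highest, and with salt Cabernet Sauvignon passed both rootstocks.

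**Figure D1:**
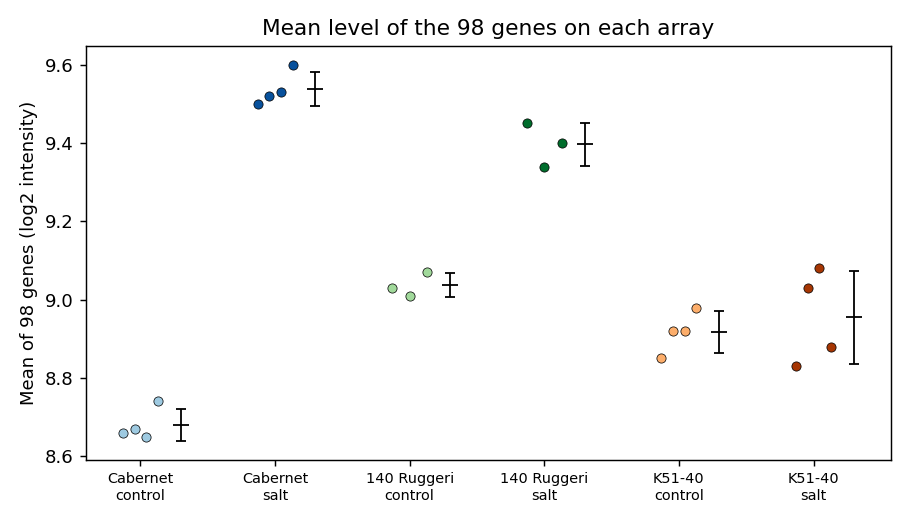
Mean log2 intensity of the 98 genes (y axis) on each of the 22 arrays (points), by variety and treatment (x axis), with the group mean and SD beside the points. Cabernet Sauvignon moved from 8.68 to 9.54 and 140 Ruggeri from 9.04 to 9.40 between control and salt, whereas the K51-40 groups overlapped.

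Across the 98 genes the salt difference in Cabernet Sauvignon ran from 0.60 to 2.88, with a median of 0.75, and the middle 50% of the differences lay between 0.65 and 0.90. In K51-40 the median was 0.10 and the range was from −0.64 to 0.39. In 140 Ruggeri the median was 0.36, with a range from −0.51 to 1.02, against a median of −0.003 over all genes. The Cabernet Sauvignon arrays were scanned on 2 dates, and within each date the median difference was 0.77 and 0.73. The criterion of separate arrays already required every difference within a date to be above 0, so the part of scan date was not tested. Just inside the threshold were 3 cytochrome P450 and laccase genes, CYP81D8 at 0.60, CYP86B1 at 0.601 and a laccase at 0.602. Just outside were an amino acid permease (GSVIVT01008812001) at 0.599, an S-receptor kinase at 0.595 and a glutathione S-transferase of the GSTU10 type (GSVIVT01019988001) at 0.595.

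In 140 Ruggeri, 93 of the 98 genes had a higher mean with salt, where 49.3% of all genes did. Every salt array lay above every control array for 49 of them, against 6.01% of all genes, and the reverse held for 0, against 6.73% of all genes. A difference of at least 0.5 was found for 27 genes (background 1.01%) and one of −0.5 or lower for 1 gene (background 0.64%). An unadjusted p below 0.05 by limma went with a higher mean for 49 genes (background 4.18%) and with a lower mean for 0 (background 4.61%). After adjustment over all 26241 genes, 3 of the 98 were called higher, against a background of 0.0724%, and 0 lower (background 0.0152%), a call being a change of 1.41-fold or more whose adjusted p did not exceed 0.05. All 6 arrays of 140 Ruggeri were scanned on 1 date. On the 2 slides that held both of its treatments, 88 and 84 of the 98 differences were above 0, each with a median of 0.33.

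Control and salt arrays of 140 Ruggeri with the same replicate number deviated together. With the replicate number within each variety as a block, limma called 10 of the 98 genes higher (background 0.232%), and 2 of these 10 were among the first 3. When the fit used scanner values and left out Cabernet Sauvignon control replicate 3, it called 13 genes (background 0.29%), including all of the first 3. Of the 10 and the 13 genes, 9 were shared. Without 140 Ruggeri control replicate 2, 0 of the 98 genes were called by limma, and 5 of all genes were called higher. Without salt replicate 1 these numbers were 0 and 6, and without control replicate 3 they were 1 and 16. With only the 6 arrays of 140 Ruggeri in the fit they were 0 and 0. Whether a gene responded differently in 140 Ruggeri than in Cabernet Sauvignon or K51-40 was not tested, because the choice of genes had used both of these varieties.

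**Figure D2:**
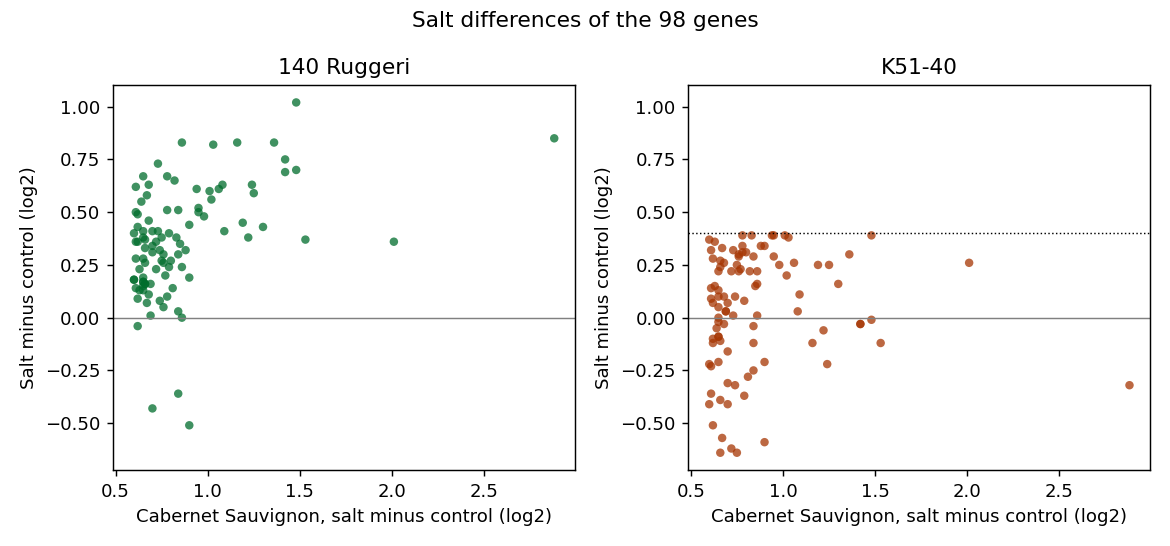
Salt minus control difference in log2 for each of the 98 genes (points), with Cabernet Sauvignon on the x axis and 140 Ruggeri (left) or K51-40 (right) on the y axis; the dotted line is the limit of 0.4 that the choice of genes set in K51-40. In 140 Ruggeri 93 of the 98 points lie above 0 and the highest is 1.02.

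The first of the 3 genes called in 140 Ruggeri was GSVIVT01001913001 (VIT_00s0174g00270), annotated as a D-isomer specific 2-hydroxyacid dehydrogenase, an NAD-binding oxidoreductase. Its log2 values in 140 Ruggeri were 7.84, 7.60 and 7.79 on control arrays and 8.76, 8.54 and 8.38 on salt arrays. The groups did not overlap, and the gene rose by 0.82 (standard error 0.119, limma adjusted p = 0.00502). In Cabernet Sauvignon the control arrays gave 6.50, 6.72, 6.29 and 6.52 and the salt arrays 7.40, 7.53, 7.59 and 7.64, a difference of 1.03. In K51-40 the means were 7.46 ± 0.15 and 7.84 ± 0.14 (SD, n = 4), and here too the groups did not overlap. Over the alternatives its adjusted p in 140 Ruggeri exceeded 0.05 with 75th percentile scaling (0.261), with only its 6 arrays in the fit (0.135), without control replicate 2 (0.0561) and without salt replicate 1 (0.0563).

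GSVIVT01000098001, which has no annotation in the study's tables, had 140 Ruggeri values of 9.01, 9.57 and 9.25 under control conditions and 10.33, 10.39 and 10.17 with salt. It rose by 1.02 (standard error 0.193, limma adjusted p = 0.0436), the largest difference of the 98 genes in that variety, and the call was lost without any 1 of its 6 arrays. The call was also lost with 75th percentile scaling (limma adjusted p = 0.52) and with only those 6 arrays in the fit (0.135). GSVIVT01033665001 (VIT_08s0007g04880), annotated as an unknown protein, had control values of 8.33, 8.39 and 8.29 and salt values of 9.19, 8.67 and 9.10. It rose by 0.65 (standard error 0.122, limma adjusted p = 0.0436), but its adjusted p lay anywhere between 0.00845 and 0.815 in other settings. The call was lost in most of these settings, among them scanner values of all 22 arrays (0.738) and, narrowly, the replicate block (0.052). The salt values of both genes lay above all their control values.

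At the other end, 3 genes had the lowest differences in 140 Ruggeri. GSVIVT01032283001, without annotation, had control values of 11.71, 11.48 and 11.77 and salt values of 10.53, 11.71 and 11.20, a difference of −0.51 (standard error 0.519, limma adjusted p = 0.857). The salt arrays were spread over more than 1 log2 unit and overlapped the controls. A salicylic acid carboxyl methyltransferase (GSVIVT01018904001), the enzyme that makes methyl salicylate, differed by −0.43 (standard error 0.232, limma adjusted p = 0.616). Its Cabernet Sauvignon control arrays fell into a pair at 7.45 and 7.31 and a pair at 6.37 and 6.30, while the salt arrays lay between 7.47 and 7.64. A gene with no hit in the annotation (GSVIVT01025289001) differed by −0.36 in 140 Ruggeri.

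A group called detoxification here held 10 of the 98 genes, named as glutathione S-transferases, glucosyltransferases or CYP genes in the annotation. What these enzymes act on was not tested. A salicylic acid glucosyltransferase among them was also counted as a hormone gene, and ferulate 5-hydroxylase was not included. The median difference of the group was 0.71 in Cabernet Sauvignon, 0.39 in 140 Ruggeri and 0.10 in K51-40. The largest difference of all 98 genes in Cabernet Sauvignon belonged to the cytochrome P450 gene CYP89A6 (GSVIVT01023560001, VIT_14s0036g00210). Its control values there were 7.56, 7.82, 8.05 and 7.82 and its salt values 10.45, 10.57, 10.42 and 11.34, which is 7.81 ± 0.20 against 10.69 ± 0.43 (SD, n = 4), or 7.38-fold, and its probes gave 2.84 and 2.92. Salt replicate 4 stood above the other salt arrays. In 140 Ruggeri the values were 9.30, 9.17 and 9.53 against 10.30, 10.07 and 10.18, a difference of 0.85 without overlap (standard error 0.223, limma adjusted p = 0.173). In K51-40 control values of 9.32 to 10.21 and salt values of 9.09 to 9.80 overlapped.

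The glutathione S-transferase GSTU22 (GSVIVT01038031001), of the tau class that couples glutathione to electrophiles, had Cabernet Sauvignon values of 10.86, 10.48, 10.24 and 10.25 under control conditions and 11.64, 11.77, 11.89 and 11.99 with salt. The difference was 1.36 there and 0.83 in 140 Ruggeri (standard error 0.199, limma adjusted p = 0.132), where control replicate 1 at 11.14 overlapped salt replicate 3 at 11.11. The adjusted p was 0.0379 without that control array. Another P450, CyP82A2 (GSVIVT01023562001), had a difference of 1.22 as the mean of probes that gave 0.02 and 2.43. The GSTU10 genes GSVIVT01019987001 and GSVIVT01019989001 differed by 0.70 and 0.61 in Cabernet Sauvignon and by 0.31 and 0.28 in 140 Ruggeri. Among the 100 other annotated genes of this group, limma called 7 higher and 0 lower in Cabernet Sauvignon (0.598% and 0.309% of all genes). In K51-40 it called 7 higher and 9 lower (0.968% and 1.29%), and in 140 Ruggeri 1 higher and 0 lower (0.0724% and 0.0152%). The annotation comes from tables of genes that the study had picked on these samples. Such counts, in this and every other annotation group, are therefore not independent of the response.

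Galactinol synthase makes galactinol, the galactosyl donor for raffinose. There were 3 annotated galactinol synthases among the 98 genes. With a gene annotated as mannitol dehydrogenase they formed the group of sugar alcohols and raffinose sugars. The group had a median of 1.13 in Cabernet Sauvignon, 0.56 in 140 Ruggeri and 0.39 in K51-40. The gene next to the mannitol dehydrogenase was annotated as a sinapyl alcohol dehydrogenase (GSVIVT01006459001), and what either acts on was not tested. GSVIVT01031274001 (VIT_14s0060g00810) had Cabernet Sauvignon values of 7.91, 7.61, 7.98 and 7.99 under control conditions and 9.44, 9.69, 9.12 and 9.16 with salt, or 7.87 ± 0.18 against 9.35 ± 0.27 (SD, n = 4). In 140 Ruggeri its values were 8.51, 8.95 and 8.19 against 9.56, 9.22 and 8.96, a difference of 0.70 with the lowest salt array barely above the highest control array (standard error 0.189, limma adjusted p = 0.200). In K51-40 it differed by 0.39, close to the limit set by the choice of genes.

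GSVIVT01031285001 (VIT_14s0060g00730) moved from 6.27 ± 0.12 to 7.58 ± 0.17 (SD, n = 4) in Cabernet Sauvignon and gave 0.43 in 140 Ruggeri (limma adjusted p = 0.232). The third, GSVIVT01031278001 (VIT_14s0060g00790), differed by 0.94 in Cabernet Sauvignon, by 0.61 in 140 Ruggeri and by 0.39 in K51-40, and in K51-40 its 4 salt arrays also lay above its 4 control arrays. For GSVIVT01031285001 the salt level in Cabernet Sauvignon remained below the control level of K51-40, which was 7.95 ± 0.07 (SD, n = 4). The mannitol dehydrogenase GSVIVT01006458001 had control values in 140 Ruggeri of 10.35, 10.36 and 10.38 and salt values of 10.86, 10.81 and 10.92, a difference of 0.50 without overlap (standard error 0.158, limma adjusted p = 0.284). All 4 genes had an unadjusted p below 0.05 by limma in 140 Ruggeri, and 0 were called. With a higher mean, such a p was found for 49 of the 98 genes (background 4.18%). Of the 9 other annotated genes of this group, 1 was called higher in Cabernet Sauvignon (0.598% of all genes) and 1 lower in 140 Ruggeri (0.0152%).

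Germins and germin-like proteins are secreted proteins of the cupin fold, and 3 of the 98 genes carried that annotation. Their median difference was 1.16 in Cabernet Sauvignon, 0.69 in 140 Ruggeri and −0.03 in K51-40. For Germin-like protein 3 (GSVIVT01031079001, VIT_14s0060g02760) the 140 Ruggeri values were 11.77, 12.04 and 11.93 under control conditions and 12.67, 12.49 and 12.63 with salt, a difference of 0.69 (standard error 0.204, limma adjusted p = 0.258). These groups did not overlap, and the blocked fit gave an adjusted p of 0.0274. In Cabernet Sauvignon its control values were 10.32, 10.33, 10.15 and 10.77 and its salt values 11.62, 11.46, 11.82 and 12.36.

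Germin protein 3 (GSVIVT01000071001) had its lowest control level in Cabernet Sauvignon, at 8.11, 8.23, 7.80 and 8.17, and its highest in 140 Ruggeri, at 11.44, 11.72 and 11.57. Its difference was 1.16 in the former and 0.83 in the latter (standard error 0.323, limma adjusted p = 0.445). The germin GSVIVT01008094001 differed by 1.02 in Cabernet Sauvignon and by 0.56 in 140 Ruggeri, where 9.18, 9.34 and 9.43 stood against 10.00, 9.50 and 10.12 (limma adjusted p = 0.124). All 3 genes had every salt array above every control array in 140 Ruggeri, as did 49 of the 98 genes and 6.01% of all genes. Members of this family are similar in sequence, and the log2 values of Germin-like protein 3 and of the unannotated GSVIVT01000103001 differed by at most 0.23 on any of the 22 arrays, so their transcripts may not have been measured apart.

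**Figure D3:**
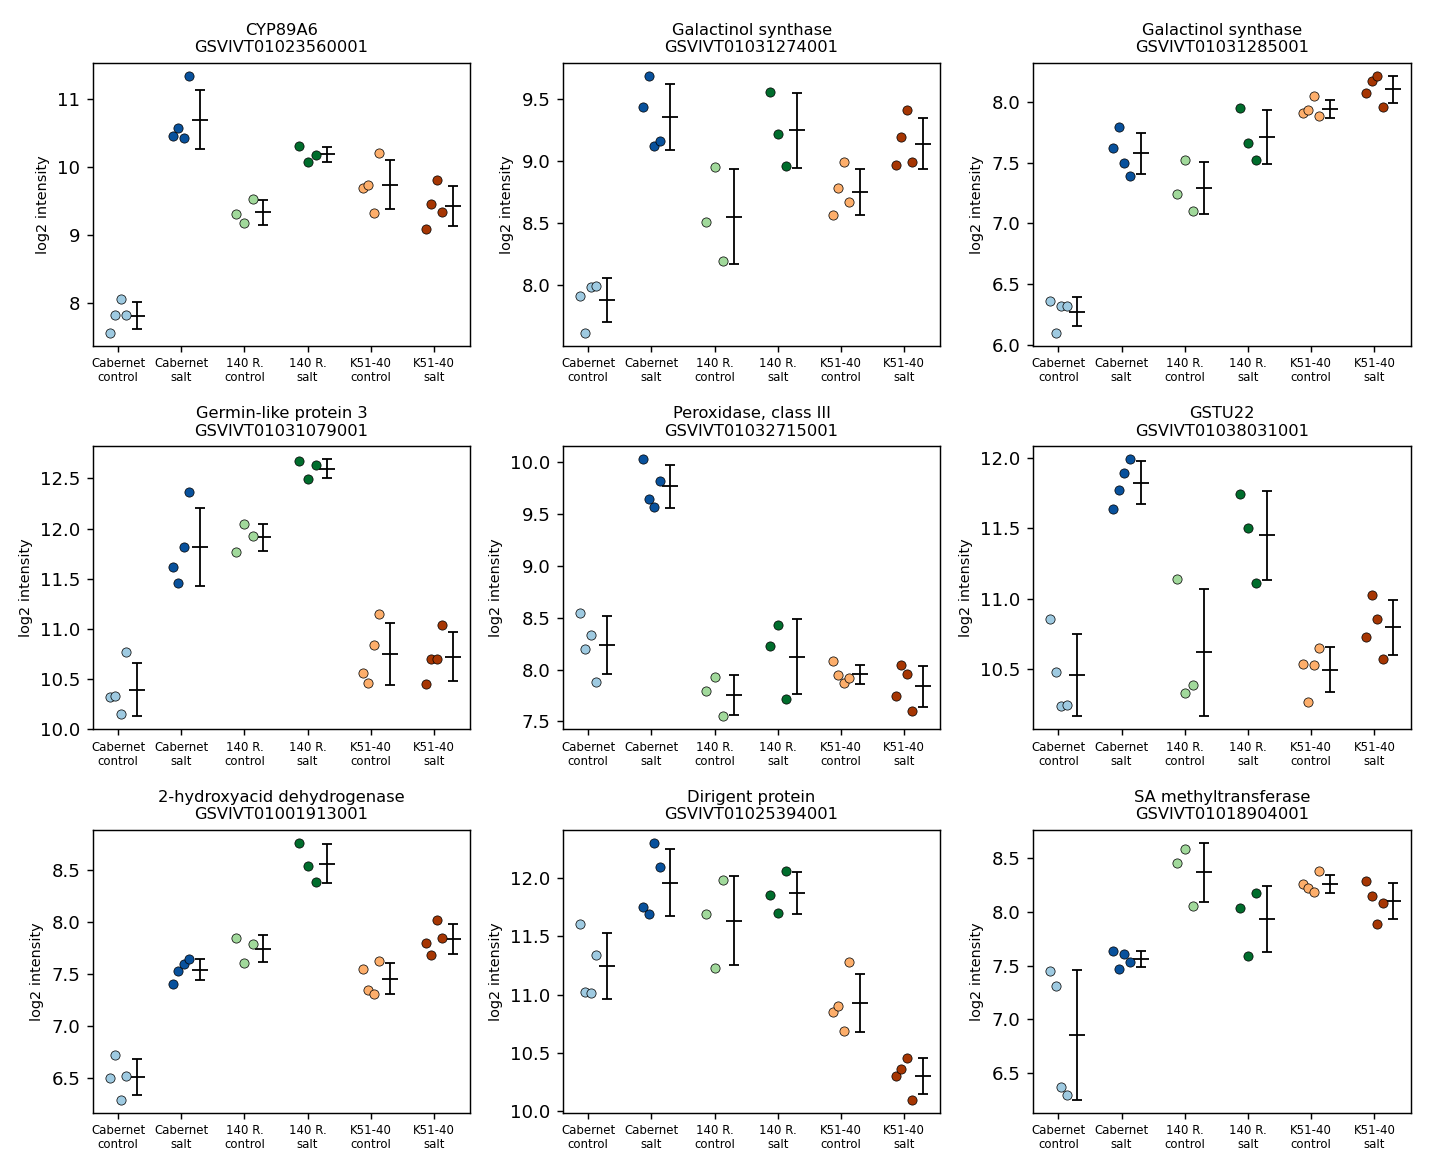
Log2 intensity (y axes, each with its own scale) of 9 of the 98 genes on each array (points) by variety and treatment (x axes; 140 R. is 140 Ruggeri), with group means and SD. The CYP89A6 control arrays of Cabernet Sauvignon, at 7.56 to 8.05, lie below all rootstock arrays, and the dirigent gene has lower salt than control arrays in K51-40 only.

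The 5 cell wall genes had a median difference of 0.70 in Cabernet Sauvignon, 0.23 in 140 Ruggeri and −0.41 in K51-40, where the median of all 98 genes was 0.10. The class III peroxidase GSVIVT01032715001 (VIT_13s0067g02360), a secreted heme enzyme that oxidises phenolics in the wall, had Cabernet Sauvignon values of 8.55, 8.20, 8.33 and 7.88 under control conditions and 10.03, 9.65, 9.57 and 9.82 with salt. It differed by 1.53 there, by 0.37 in 140 Ruggeri with overlapping arrays (standard error 0.174, limma adjusted p = 0.561) and by −0.12 in K51-40. A dirigent protein (GSVIVT01025394001), of the family that steers the coupling of lignan precursors, had 11.60, 11.02, 11.01 and 11.34 against 11.75, 11.69, 12.30 and 12.09 in Cabernet Sauvignon. In K51-40 the order was turned, with 10.85, 10.90, 10.69 and 11.28 on control arrays and 10.30, 10.36, 10.46 and 10.10 on salt arrays.

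The cellulose synthase-like gene CSLG3 (GSVIVT01019568001) showed the same turn, from 9.22 ± 0.16 to 9.88 ± 0.04 in Cabernet Sauvignon and from 9.05 ± 0.19 to 8.41 ± 0.14 in K51-40 (SD, n = 4). CESA2 (GSVIVT01023837001), annotated as a cellulose synthase, and a laccase (GSVIVT01032744001), an oxidase linked to lignin polymerisation, each differed by −0.41 in K51-40. In 140 Ruggeri the 5 cell wall genes differed by 0.16 to 0.41 and 0 were called. The K51-40 differences of the dirigent gene and CSLG3 were −0.62 and −0.64. The choice of genes had set an upper limit on K51-40, so these values are descriptions. Among the 83 other annotated cell wall genes, 0 were called higher and 3 lower in Cabernet Sauvignon (0.598% and 0.309% of all genes). In K51-40 15 were called higher and 6 lower (0.968% and 1.29%).

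Hormone genes numbered 7, with a median of 0.70 in Cabernet Sauvignon, 0.58 in 140 Ruggeri and 0.22 in K51-40. The salicylic acid glucosyltransferase GSVIVT01038203001, whose product is a storage form of salicylic acid, had 140 Ruggeri values of 7.50, 7.76 and 7.52 against 8.54, 8.38 and 8.06. The difference of 0.73 equalled that in Cabernet Sauvignon (standard error 0.174, limma adjusted p = 0.132), and the blocked fit gave an adjusted p of 0.0266. Jasmonate O-methyltransferase (GSVIVT01009751001), which makes methyl jasmonate, had 5.58, 5.48 and 5.66 against 6.22, 6.40 and 5.95 in 140 Ruggeri, a difference of 0.62 (standard error 0.125, limma adjusted p = 0.0572, and 0.0277 with the block). The groups of both genes did not overlap.

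A Protein phosphatase 2C, of a family whose best known members restrain abscisic acid signalling, differed by 0.67 in Cabernet Sauvignon and 0.58 in 140 Ruggeri (GSVIVT01028698001), and a Protein phosphatase 2C annotated DBP by 0.72 and 0.36 (GSVIVT01012879001). A Cytokinin-repressed protein CR9 gene differed by 0.78 and 0.67. Cytokinin oxidase (GSVIVT01028586001), which degrades cytokinins, differed by 0.65 and by 0.17, and its arrays in 140 Ruggeri overlapped. With the salicylic acid carboxyl methyltransferase described above, 6 of the 7 hormone genes had a higher mean with salt in 140 Ruggeri (background 49.3%). By limma 5 had an unadjusted p below 0.05 with a higher mean (background 4.18%), and 0 were called.

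Transcription factors, transporters, receptors and kinases, pathogenesis-related proteins and chaperones made up the remaining annotation groups. The 3 transcription factor genes were a pair annotated as NAC domain-containing protein 42 (GSVIVT01020389001 and GSVIVT01020388001) and a Lateral organ boundaries protein 1 gene. The first NAC gene had 7.38, 7.55, 7.49 and 7.40 against 8.09, 8.41, 8.08 and 8.42 in Cabernet Sauvignon, while all its rootstock arrays lay between 5.73 and 6.67. In 140 Ruggeri the 3 genes differed by 0.37 to 0.49 and 0 were called. Of the 119 other annotated transcription factor genes, 4 were called higher and 7 lower in Cabernet Sauvignon (0.598% and 0.309% of all genes).

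The 5 transporter genes were a pair of ABC transporter G member 22 genes, a pair of Amino acid permease 2 genes and MSS1, a sugar transport protein of the STP13 type that imports hexoses. They differed by 0.65 to 0.85 in Cabernet Sauvignon and by 0.15 to 0.41 in 140 Ruggeri, and 0 were called there. The 5 receptor and kinase genes were led by Receptor protein kinase RK20-1 (GSVIVT01030635001) at 1.19 and a leucine-rich repeat gene at 1.09, which differed by 0.45 and 0.41 in 140 Ruggeri without overlap. For the leucine-rich repeat gene (GSVIVT01035937001) the value in 140 Ruggeri was the mean of probes that gave −0.04 and 0.86. The 3 pathogenesis-related genes differed by 0.66 to 0.88 in Cabernet Sauvignon. A class IV chitinase, an enzyme that cuts fungal chitin, gave 0.33 in 140 Ruggeri and −0.39 in K51-40, a gene annotated as pathogenesis-related (GSVIVT01014185001) gave 0.32 and 0.34, and the lipid transfer protein gene GSVIVT01030190001 gave 0.10 and 0.39. The chaperone genes Heat shock protein 70 and Heat shock protein 81-2 differed by 0.68 and 0.66 in Cabernet Sauvignon and by 0.46 and 0.26 in 140 Ruggeri. Of 39 other annotated chaperone genes, 6 were called higher and 1 lower in Cabernet Sauvignon (0.598% and 0.309% of all genes). In K51-40 11 were called higher and 0 lower (0.968% and 1.29%), and in 140 Ruggeri 3 and 0 (0.0724% and 0.0152%). These counts too are not independent of the response. All the annotation groups together held 46 of the 98 genes, and the other 52 belonged to none of them.

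Many of the 98 genes lay near each other. The transcript identifiers run nearly in order along the chromosomes, since 98.5% of 1915 annotated neighbouring pairs within 10 identifier numbers had locus names on 1 chromosome. Of the 98 genes, 31 (31.6%) had another of the 98 within 10 identifier numbers, whereas 4.46% of the other genes had one. They formed 11 runs. The run with most members held the galactinol synthases on chromosome 14, where 6 of the 10 genes from GSVIVT01031274001 to GSVIVT01031285001 were among the 98.

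The 6 genes of that run were the 3 galactinol synthases, a glycosyl transferase of family 8 (GSVIVT01031280001), the family to which galactinol synthases belong, and the unannotated GSVIVT01031282001 and GSVIVT01031284001. They differed by 0.94 to 1.48 in Cabernet Sauvignon, by 0.43 to 0.70 in 140 Ruggeri and by 0.16 to 0.39 in K51-40. The 4 genes between them differed by 0.03 to 0.06 in Cabernet Sauvignon. Probes of such similar genes can bind each other's transcripts, and how far they did was not tested.

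The second run lay around a gene annotated as Germin-like protein 3 (GSVIVT01000100001, VIT_14s0128g01000), which itself differed by 0.02 in Cabernet Sauvignon. Of the 7 genes from GSVIVT01000097001 to GSVIVT01000103001, 4 were among the 98, all of them unannotated, with 1.08 to 2.01 in Cabernet Sauvignon and 0.36 to 1.02 in 140 Ruggeri. GSVIVT01000102001 was the second highest of the 98 genes at 2.01, but its probes gave 4.01 and 0.01. In K51-40 the same probes gave 0.67 and −0.16. The probe that rose in Cabernet Sauvignon was thus above the limit of 0.4 in K51-40, and the gene was kept because the mean of both probes was 0.26. The neighbouring GSVIVT01000101001 differed by 2.77 in Cabernet Sauvignon and was left out only by its value of 0.40 in K51-40. GSVIVT01000103001 had 140 Ruggeri values of 11.78, 12.19 and 11.96 against 12.77, 12.70 and 12.71, a difference of 0.75 without overlap (standard error 0.202, limma adjusted p = 0.196, and 0.0194 with the block).

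**Figure D4:**
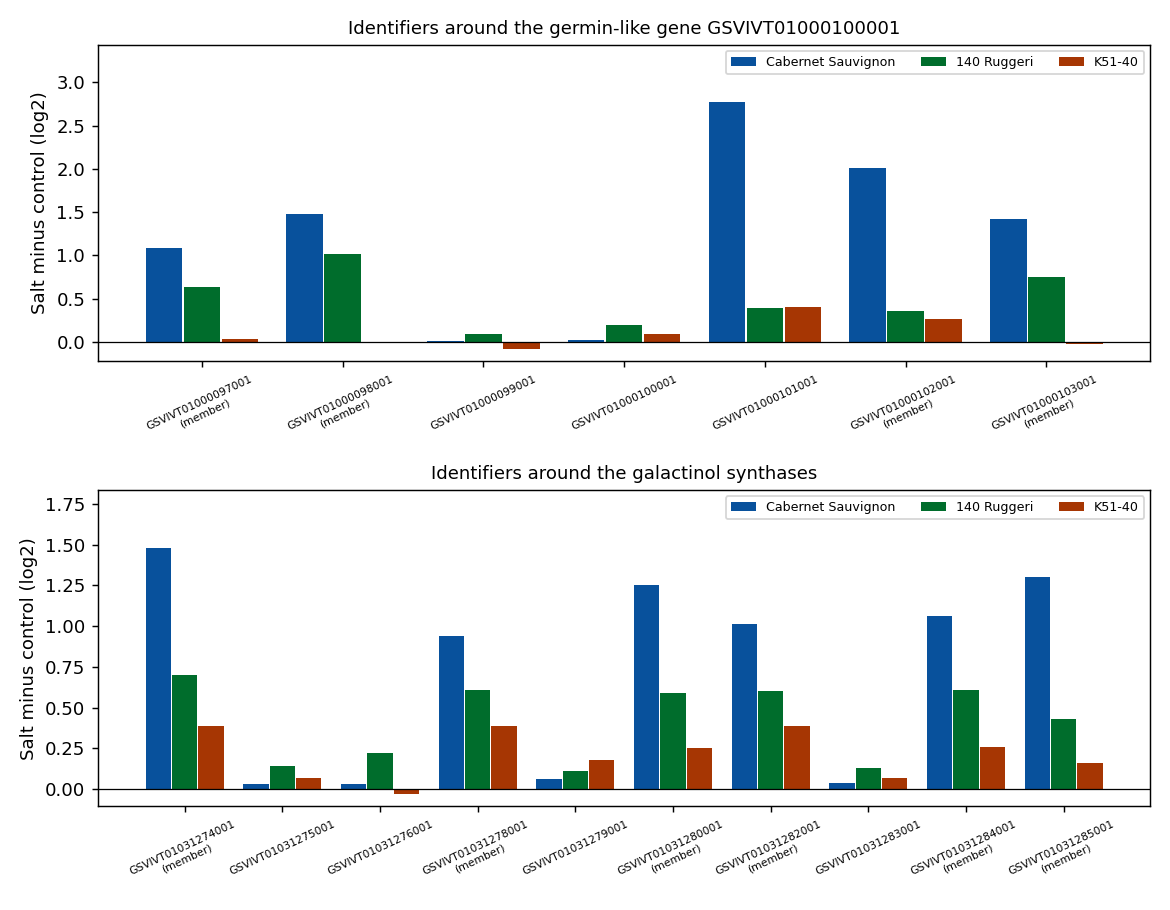
Salt minus control difference in log2 (y axis) in the 3 varieties (bars) for consecutive transcript identifiers (x axis) around 2 runs, with the genes among the 98 marked as member. In the run of galactinol synthases 6 genes reached 0.94 to 1.48 in Cabernet Sauvignon and the 4 genes between them stayed at 0.03 to 0.06.

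Several of the other runs held genes with the same or a similar annotation. CYP89A6 and CyP82A2 lay on chromosome 14, the NAC domain-containing protein 42 genes on chromosome 19, the ABC transporter G member 22 genes on chromosome 6 and the Receptor protein kinase RK20-1 genes on chromosome 12. A run on chromosome 3 held 4 of the 98 genes, namely a 2OG-Fe(II) oxygenase, an unannotated gene and a pair of Map kinase substrate 1 MKS1 genes. The latter differed by 0.95 and 0.80 in Cabernet Sauvignon and by 0.52 and 0.27 in 140 Ruggeri. MKS1 is the name of a substrate of mitogen-activated protein kinase 4 in Arabidopsis, and here it rests on the annotation only. No Arabidopsis homolog was listed for the first gene, and AT4G16690 was listed for the second. On chromosome 17, 3 genes with no hit in the annotation differed by 0.84 to 0.86 in Cabernet Sauvignon.

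The level before salt differed among the 98 genes. In 53 of them the Cabernet Sauvignon control mean was below both rootstock control means, where 42.8% of all genes had that order. In 21 genes the Cabernet Sauvignon mean went from below both rootstock control means to above both of them with salt (background 1.88%), among them CYP89A6, GSTU22 and the galactinol synthase GSVIVT01031274001. The choice of genes used these Cabernet Sauvignon and K51-40 arrays, so these orders are descriptions. Ferulate 5-hydroxylase (GSVIVT01022205001), the P450 enzyme on the route to syringyl lignin, kept its order: its Cabernet Sauvignon arrays went from 9.71 to 10.11 under control conditions to 10.41 to 10.96 with salt, and all rootstock arrays lay between 12.27 and 13.21.

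All 98 genes had 2 probes. In Cabernet Sauvignon the weaker probe reached 0.5 for 90 genes and stayed below 0.3 for 4, namely GSVIVT01000102001, CyP82A2 (GSVIVT01023562001), GSVIVT01000097001 and GSVIVT01029784001. In 140 Ruggeri both probes were above 0 for 89 of the 98 genes, against 34.6% of all genes with 2 probes. Of the 98 genes, 96 had a spot well above background on every Cabernet Sauvignon control array with usable scanner values, and 98 had one on every salt array. For GSVIVT01029784001 no spot was well above background on those Cabernet Sauvignon control arrays. Its salt level in Cabernet Sauvignon was at least 1.47-fold higher than the lowest signal that was, taken over all Cabernet Sauvignon control arrays.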

How the data were processed

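RNA from roots was hybridised to 22 one-colour 8x60K custom arrays. The authors deposited scanner output as linear Cy3 intensity per spot, extracted with Agilent Feature Extraction 10.7.3 (from the submitters' processing notes), and a table of processed log2 values per spot. They made these log2 values by quantile normalization of median intensities and ComBat adjustment for hybridisation date, and whether groups were protected is not given in the sources used here. Quantile normalization gives all arrays 1 distribution, so a change shared by most genes would not be seen.

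The deposited log2 values of 61657 spots (52658 probes) were averaged over the spots of each of 26241 genes. They were the main source because scanner values of the array labelled Cabernet Sauvignon control replicate 3 did not match their own column. The labels gave the variety and treatment of each array. The labels call arrays of a group biological replicates. The 98 genes and the gene groups were chosen with earlier results of these data known. With limma 3.58.1 (R 4.3.3), group means were fitted jointly over 22 arrays, and p was adjusted over all genes by Benjamini-Hochberg. Genes were called at an adjusted p of at most 0.05 and an absolute log2 change of at least 0.5. The calculation was tested on simulated data.

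Named genes were the 20 with the largest difference in Cabernet Sauvignon, the 3 largest of each annotation group, those called in 140 Ruggeri, the 3 lowest there, and 3 on each side of the threshold of 0.6. Others were named after their values were seen. Names come from the study's gene tables, which annotated 79 of the 98 genes and left 19 unannotated. The annotation groups were set by keywords in these names. Whether a spot was well above background came from scanner values, without the array named above. The lowest signal used for a bound came from all Cabernet Sauvignon control arrays, that array included. Same-numbered control and salt arrays had residual correlations of 0.328 to 0.493 in K51-40 and 0.216 to 0.393 in 140 Ruggeri, so numbers were taken as pairs there, and of −0.413 to 0.385 in Cabernet Sauvignon. The labels number the arrays but do not call them pairs, and the replicate block was set within each variety, Cabernet Sauvignon included. In 140 Ruggeri, control and salt replicates 2 shared a slide, as did replicates 3, whereas replicates 1 did not. The part of slide in these correlations was not tested. Alternatives were scanner values with the same steps (with and without the array named above), 75th percentile scaling, normexp with an offset of 50, dim genes left out, slide or replicate as a block, only the 6 arrays of 140 Ruggeri, single probes, a log2 change of at least 1, and each array left out. Normexp used the median signal. The median signal was 4 to 14.8 times background, and the number of arrays limits precision. Levels of different genes were not compared, and no sequences were used.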

Additional observations from a re-analysis of the deposited data

Results flagged for a closer look

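In 7 of 184 groups of 4 arrays, 1 array lay farther from the rest than Dixon's limit allows, and chance gives about 1 in 20 groups. The mean of the 98 genes was 8.74 on Cabernet Sauvignon control replicate 4, against 8.65 to 8.67 on the other control arrays. CYP89A6 (GSVIVT01023560001) was 11.34 on Cabernet Sauvignon salt replicate 4, against 10.42 to 10.57. The galactinol synthase GSVIVT01031285001 was 6.10 on Cabernet Sauvignon control replicate 2, against 6.32 to 6.36. GSVIVT01000097001 was 12.37 on K51-40 control replicate 4, against 11.97 to 12.02. The lipid transfer protein gene GSVIVT01030190001 was 5.89 on Cabernet Sauvignon control replicate 4, against 5.49 to 5.55. The ABC transporter G member 22 gene GSVIVT01031377001 was 8.70 on K51-40 salt replicate 3, against 8.25 to 8.29. The salicylic acid glucosyltransferase gene GSVIVT01038203001 was 5.99 on Cabernet Sauvignon control replicate 1, against 6.49 to 6.56. Groups of 3 arrays, which include those of 140 Ruggeri, were not examined this way.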

How the results depend on the processing

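In 140 Ruggeri, the median difference of the 98 genes was 0.36 and lay between 0.31 and 0.41 without any 1 array and between 0.32 and 0.37 under the other settings, with 89 to 94 genes above 0. With 75th percentile scaling it was 0.37 while the median of all genes was −0.09. The number of genes called was 3. It was 13 from scanner values once Cabernet Sauvignon control replicate 3 was left out, 10 with the replicate block, 1 at a log2 change of at least 1, and 0 with 75th percentile scaling or with only the 6 arrays of 140 Ruggeri in limma. Of all genes, 76, 61, 5, 1 and 0 were called higher in these settings, in the same order. At an unadjusted p below 0.05, these last 2 settings gave 20 and 53 of the 98 genes higher and 1 and 1 lower. Of all 26241 genes, 289 were higher and 1933 lower with 75th percentile scaling, and 985 and 988 with the 6 arrays. The number of the 98 genes called was 2 or 3 in all other settings that kept every array. Without 1 array of 140 Ruggeri it was 0 to 3, with 0 without control replicate 2 and without salt replicate 1, and 1 without control replicate 3. Between 5 and 18 of all genes were then called higher. The cause was not tested. The replicate block moved that count and the named calls given with it.

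The criteria found 98 genes in the deposited values and 177 with 75th percentile scaling, 47 of them shared, and the cause was not tested. Scanner values gave 85 genes (48 shared), or 90 (81 shared) once Cabernet Sauvignon control replicate 3 was left out. Without any 1 array of Cabernet Sauvignon or K51-40 the number was 89 to 143, highest without Cabernet Sauvignon salt replicate 1. Of 630 results for 45 named genes in 140 Ruggeri, 592 kept their direction and call, 23 lost the call, 14 gained it and 1 changed direction. The exception was the lipid transfer protein gene GSVIVT01030190001, which was not called, was 0.10, and lay between −0.03 (without control replicate 3) and 0.28 (without salt replicate 3) when 1 array was left out. Only 3 of the 45 genes were called before any setting was changed. All 23 lost calls therefore fell on these 3 genes, which had 14 settings each. Most of the 592 were results for genes that were not called to begin with.

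Normexp used the median signal, because the mean signal was not analysed here. Dim spots limit 2 of the 98 genes in Cabernet Sauvignon controls.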
